A study of Mus musculus with 5 samples.

Results

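The chaperones and co-chaperones of the mouse midbrain were followed in ribosome-bound RNA from dopaminergic (DAergic) neurons after deletion of Esrrg, which encodes the nuclear receptor ERRγ (estrogen-related receptor gamma). Members were chosen by name from the deposited count table. They were protein-coding genes named Hspa, Hspb, Hsph, Hsp90, Dnaja, Dnajb or Dnajc with a number, the chaperonin subunits Tcp1 and Cct2 to Cct8, Bag1 to Bag6, Stip1, Stub1, Hsf1 and Hsf2, without Hspa9, Dnajc6 and Dnajc19. The rule found 86 genes among 53700 gene IDs, of which 29407 had at least 1 count. The group is named for the cytosol, but the rule also takes in genes whose products work elsewhere. Of these, 8 were listed here for the endoplasmic reticulum (ER) and 4 for mitochondria. Both lists hold well-known genes and are not complete. Some members carry a family name without being chaperones, such as Hspb11, which encodes a protein of the ciliary transport machinery.

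Molecular chaperones bind unfolded stretches of other proteins, keep them from clumping and release them to fold. HSP70 proteins do this in cycles of ATP use that J-domain proteins (the DNAJ families) start and that nucleotide exchange factors (HSP110 and BAG proteins) end, and Stip1 passes clients on to HSP90. The chaperonin CCT/TRiC is a closed barrel of different subunits that folds actin and tubulin, small heat shock proteins hold unfolded proteins without ATP, Stub1 marks chaperone-bound clients for degradation, and Hsf1 switches on the inducible chaperones when unfolded proteins build up. In DAergic neurons this network is studied because α-synuclein is among its clients.

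Libraries were made by BAC-TRAP, in which an antibody pulls down EGFP-tagged ribosomal protein L10a with the mRNAs on its ribosomes. All mice were C57BL/6, aged 4 months, carried the L10a transgene and received AAV:THCre, a virus whose tyrosine hydroxylase promoter directs Cre to DAergic neurons. WT libraries (genotype L10a;Esrrg WT, replicates 2, 3 and 4) had no floxed allele, and FLOX libraries (genotype L10a;Esrrg Flox, replicates 2 and 4) were taken 1 month after Cre removed exon 2 of Esrrg. Each library came from midbrains pooled over several mice, so the p-values below measure the spread between 3 WT and 2 FLOX pools.

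The 5 libraries held 20635855 to 23105058 assigned counts, and the level that 0 counts allow was 0.13 to 0.145 CPM (3 counts, a limit that covers counting error alone). Esrrg, whose gene count includes the exons that remain, had 1763, 1643 and 1726 normalized counts in WT and 1504 and 1170.1 in FLOX. The log2 fold change was -0.35 with an SE of 0.13 (DESeq2 adjusted p = 0.0734). It was -0.55 (DESeq2 adjusted p = 0.00567) without FLOX replicate 2 and -0.19 without FLOX replicate 4. All 11 DAergic markers were present, Th at 9849 to 12813 normalized counts in WT and 10224 and 10945 in FLOX, and 1 of the 11, Ret, was lower in FLOX. RNA of other cells was present too, since the astrocyte gene Gfap had 18865 to 32741 normalized counts in WT and 20722 and 27584 in FLOX. Microglial markers moved with the groups: 10 of 12 passed the test as higher in FLOX, and their summed level was 1886 to 3677 normalized counts in WT, 6578 in FLOX replicate 2 and 14703 in FLOX replicate 4. Endothelial markers (3 of 7 higher) summed to 892 to 993 in WT and 1092 and 1748 in FLOX. Most of this sum was Slc2a1, which did not pass (748, 745 and 844 in WT, 826 and 1083 in FLOX). The 3 that passed, Cldn5, Flt1 and Slco1a4, had at most 88.7, 45.9 and 17.3 in WT and 241, 224 and 66.6 in FLOX replicate 4. No microglial or endothelial marker was at 0 in any library. None of 9 astrocyte, 8 oligodendrocyte, 3 mural, 3 glutamatergic or 4 ependymal markers with an adjusted p passed, and 1 of 6 GABAergic markers was higher and 1 lower. The part of these cells in the differences below was not tested, and in bulk RNA fewer cells of a type and less RNA per cell cannot be told apart.

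FLOX and WT libraries differed in 12 of the 78 members that had an adjusted p, and the 3 HSP90 genes were among the 7 that were higher. The others higher in FLOX were Hspb1, Dnajc2, Hspa2 and Cct2, and the 5 lower in FLOX were Dnaja4, Hspa12a, Dnajb1, Tcp1 and Stub1. The test was DESeq2 on all genes of the table with Benjamini-Hochberg adjustment, and its threshold was an adjusted p under 0.05. The 7 higher members are 8.97% of the 78, beside 4.33% of all 15228 genes with an adjusted p, and the 5 lower are 6.41%, beside 4.25%. With a fold change of at least 1.5 as well, 2 members were higher (Hsp90aa1 and Hspb1; 1.81% of all genes were) and 1 was lower (Dnaja4; 1.46% of all genes were). The median log2 fold change of the 78 was 0.013, beside -0.0093 over all genes, and 44 of the 78 (56.4%) lay within 0.2 of no difference, beside 52.5% of all genes. Both FLOX libraries lay above all WT libraries in 18 members (23.1%), close to the 19.9% of all genes, and below them in 19 (24.4%), close to 22.9%. At an unadjusted p under 0.05 (DESeq2), 12 members were higher and 11 lower, beside 1505 and 1654 of all 15228 genes. The remaining 8 members had at most 9 counts in any library and no adjusted p.

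Of the FLOX libraries, replicate 4 carried the larger part of these differences. In all 12 members that passed, it lay farther from the WT mean than FLOX replicate 2, on the same side, as it did in 93.8% of the 1306 genes that passed in the whole table. Without FLOX replicate 4 no member passed (4 were higher and 2 lower at an unadjusted p under 0.05), although all 12 kept their direction, and without FLOX replicate 2 the counts were 7 higher and 6 lower. Without WT replicate 2 or without WT replicate 3 the counts were 3 higher and 2 lower, and without WT replicate 4 they were 6 and 2. Counts over all genes are not given for these fits, so lost calls cannot be set apart from the smaller number of libraries. The edgeR quasi-likelihood test on the 16627 genes kept by filterByExpr, an alternative chosen after seeing the data, called no member in either direction, with 12 higher and 12 lower at an unadjusted p under 0.05. It called 0.884% of all genes higher and 0.535% lower, and the lowest adjusted p of a member was 0.0501. At an unadjusted p under 0.05 in this edgeR fit, 1778 of the 15228 genes with a DESeq2 adjusted p were higher and 1861 lower.

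**Figure D1:**
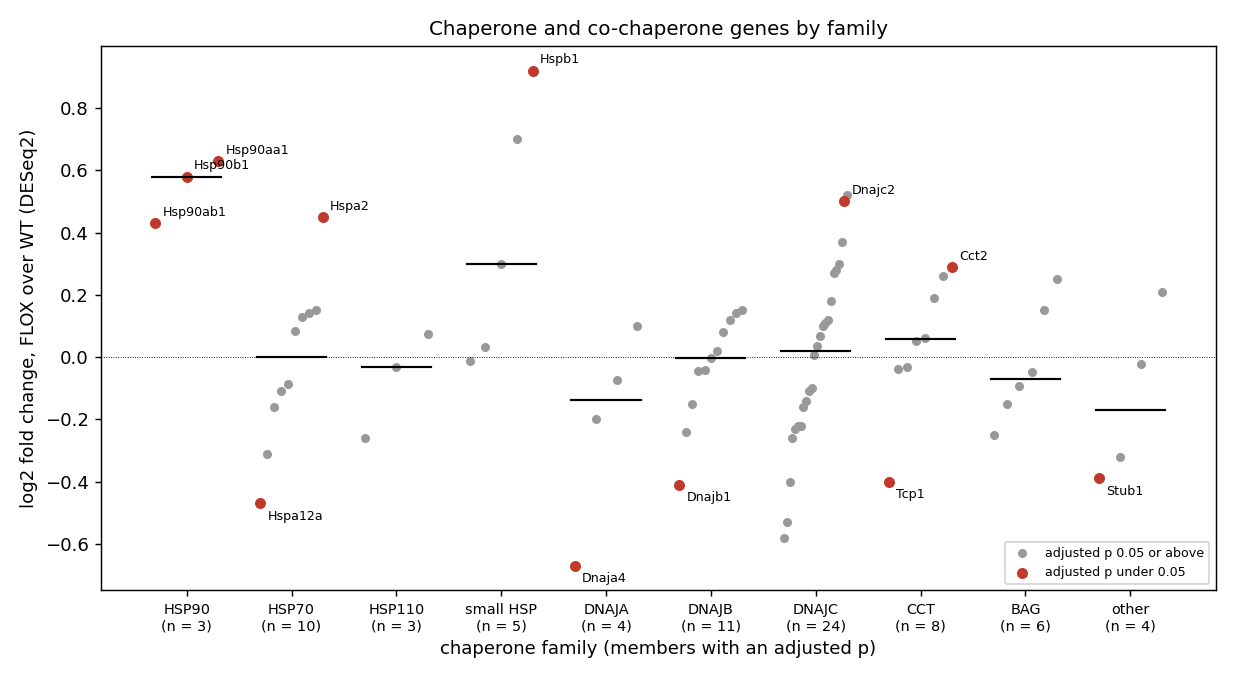
Log2 fold change (FLOX over WT, DESeq2) of the 78 members with an adjusted p, by chaperone family, with a horizontal bar at each family's median and red points for the 12 members with an adjusted p under 0.05. The 3 HSP90 genes sit between 0.43 and 0.63, while the medians of HSP70, HSP110, DNAJB, DNAJC and CCT lie near 0.

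**Figure D2:**
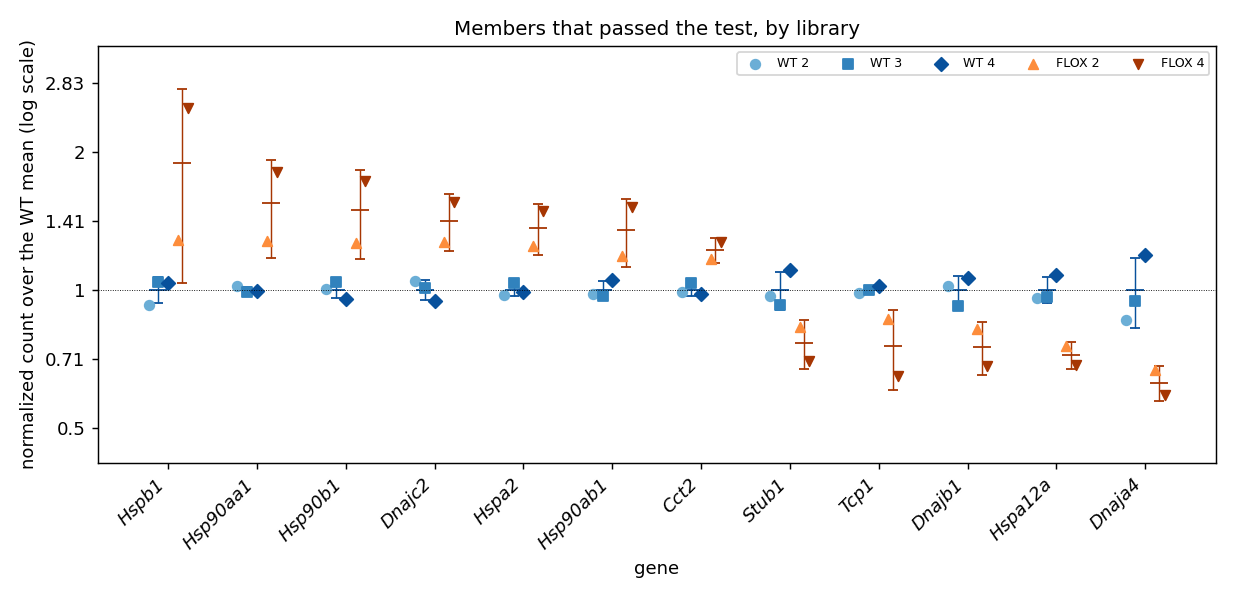
Normalized counts of the 12 members that passed the test, divided by the WT mean of the gene, in each of the 5 libraries on a log axis, with the mean and SD of each group beside the points. In every one of the 12, FLOX replicate 4 lies farther from the WT mean of 1 than FLOX replicate 2, and the groups do not overlap.

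The sequences upstream of a few members are shown because they let a reader see short matches to the heat shock element, the inverted repeat that Hsf1 binds. Genes that did and did not differ are included. A match here is a single inverted pair of GAA units, shorter than a full element, and "element" below means such a match. A window of 250 bases upstream of the annotated start was read from RefSeq (GRCm38.p6), and 70 of the 86 members matched a gene in that table. Of these, 16 had more than 1 annotated start and so more than 1 window, and a gene was counted as holding an element when any of its windows did. Each window is given 5′ to 3′ on the strand of its gene in lower case. Capitals mark a short match to the heat shock element, searched as GAANNTTC or TTCNNGAA (each reads the same on both strands). Hspb1 and Stub1 passed the test in opposite directions and each holds the element, Hspa1a is a classic heat shock gene that did not pass, and Hsp90b1 and Tcp1 passed and hold none. The genes shown have 1 window each, at chr5:135887669-135887918 (plus strand), chr17:25832920-25833169 (minus strand), chr17:34972157-34972406 (minus strand), chr10:86705445-86705694 (minus strand) and chr17:12916079-12916328 (plus strand).
Hspb1: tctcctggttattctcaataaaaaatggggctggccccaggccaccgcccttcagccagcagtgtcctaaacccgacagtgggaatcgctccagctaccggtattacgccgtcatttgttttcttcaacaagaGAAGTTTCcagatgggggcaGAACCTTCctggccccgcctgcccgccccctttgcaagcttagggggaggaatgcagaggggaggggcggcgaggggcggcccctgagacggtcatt
Stub1: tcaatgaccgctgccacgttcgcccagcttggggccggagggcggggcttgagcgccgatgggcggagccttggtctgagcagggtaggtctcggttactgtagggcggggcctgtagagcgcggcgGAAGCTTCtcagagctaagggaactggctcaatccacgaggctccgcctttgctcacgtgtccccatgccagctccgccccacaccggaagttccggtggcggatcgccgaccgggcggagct
Hspa1a: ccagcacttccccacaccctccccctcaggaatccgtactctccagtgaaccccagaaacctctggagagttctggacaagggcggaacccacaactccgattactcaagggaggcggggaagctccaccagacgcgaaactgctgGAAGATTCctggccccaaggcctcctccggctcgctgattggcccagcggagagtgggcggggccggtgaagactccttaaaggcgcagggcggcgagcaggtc
Hsp90b1: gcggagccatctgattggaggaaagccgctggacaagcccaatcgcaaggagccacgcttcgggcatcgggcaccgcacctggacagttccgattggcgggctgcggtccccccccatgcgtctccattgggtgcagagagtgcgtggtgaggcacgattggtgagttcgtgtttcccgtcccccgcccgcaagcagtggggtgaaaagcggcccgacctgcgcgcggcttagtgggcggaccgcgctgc
Tcp1: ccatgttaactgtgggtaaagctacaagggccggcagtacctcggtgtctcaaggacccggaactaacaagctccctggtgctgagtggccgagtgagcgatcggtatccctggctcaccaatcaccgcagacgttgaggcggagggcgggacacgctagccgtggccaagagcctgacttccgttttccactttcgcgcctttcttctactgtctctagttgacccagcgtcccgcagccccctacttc

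Hspb1 held 2 such elements, starting 117 and 97 bases before the start, Stub1 held 1 at 123 bases and Hspa1a held 1 at 104 bases. A match was present in 15 of the 70 members (21.4%) and in 14.5% of the 27025 genes of the table. It was present in 2 of 4 higher members with a window (Cct2 and Hspb1), in 2 of 5 lower members (Dnaja4 and Stub1), in 11 of 55 that did not pass and in 5 of 10 stress-inducible members. The other higher members, Hsp90aa1, Hsp90ab1 and Dnajc2, had no window and were not searched. The element bound by ERR receptors, TCAAGGTCA on either strand, was in the window of 0 of 70 members, and 0.422% of all genes held it. A match is a description of the letters in this window and no evidence of binding, and no match says only that the letters are not there.

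The HSP90 genes under the naming rule were all higher in FLOX, with 3 of 3 passing (100%, beside 4.33% of all genes). HSP90 genes with other names were not examined. Hsp90aa1, the stress-inducible cytosolic HSP90, had 47587, 46188 and 46307 normalized counts in WT and 59791 and 84503 in FLOX (ENSMUSG00000021270.14; log2 fold change 0.63, SE 0.14, DESeq2 adjusted p = 4.0e-04). Hsp90ab1, the constitutive cytosolic form, had 45849, 45301 and 49199 in WT and 55529 and 70741 in FLOX (ENSMUSG00000023944.15; 0.43, SE 0.12, DESeq2 adjusted p = 0.00807). In both genes the WT libraries lay close together, FLOX replicate 2 lay above all of them and FLOX replicate 4 stood higher still. Hsp90b1, the ER form also called GRP94, had 4631, 4794 and 4416 in WT and 5824 and 7981 in FLOX (ENSMUSG00000020048.14; 0.58, SE 0.14, DESeq2 adjusted p = 0.00119), in the same order. Its exons share 415 bases with the pseudogene 1810014B01Rik on the opposite strand. Together these genes summed to 98067, 96283 and 99922 normalized counts in WT and 121145 and 163224 in FLOX. That was 0.448% to 0.451% of assigned counts in WT and 0.551% and 0.718% in FLOX. Per kilobase of exon, the ratio of Hsp90aa1 to Hsp90ab1 was 0.792, 0.778 and 0.718 in WT and 0.821 and 0.911 in FLOX. The inducible form was thus the less abundant per kilobase in every library. This order rests on the merged exon lengths, 3931 bases for Hsp90aa1 and 2999 for Hsp90ab1. By normalized counts Hsp90aa1 was the higher in every library but WT replicate 4. The summed microglial markers stood in the same order as these genes, at 1886 to 3677 normalized counts in WT, 6578 in FLOX replicate 2 and 14703 in FLOX replicate 4, and their part was not tested. Every other member higher in FLOX stood in that order too, so it is not particular to the HSP90 genes. Without FLOX replicate 4 the log2 fold changes were 0.35, 0.24 and 0.33 for Hsp90aa1, Hsp90ab1 and Hsp90b1 (DESeq2 adjusted p = 0.132, 0.594 and 0.309). Hsp90ab1 also missed the threshold without WT replicate 2 (DESeq2 adjusted p = 0.11) and without WT replicate 3 (0.0728). With the replicate number added to the fit, Hsp90aa1 missed it (DESeq2 adjusted p = 0.406), while Hsp90ab1 (0.0214) and Hsp90b1 (0.00468) passed. In edgeR on filtered genes the adjusted p were 0.0501, 0.0639 and 0.0529 for Hsp90aa1, Hsp90ab1 and Hsp90b1. Reads that align equally well to processed copies of these genes elsewhere in the genome were left out by the authors' counting, so their levels may be underestimated.

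**Figure D3:**
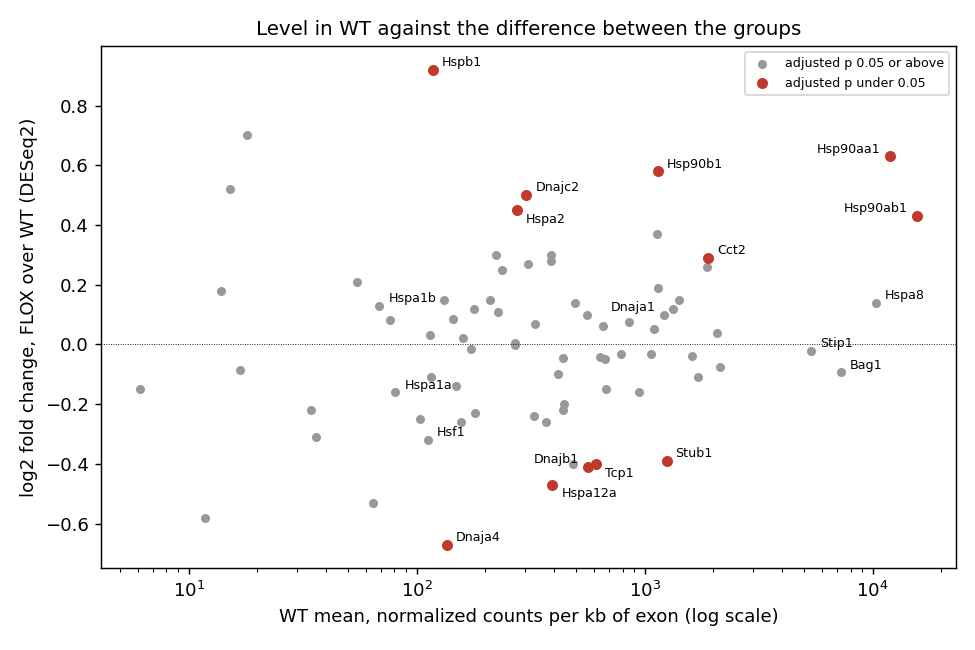
Mean WT level of the 78 members in normalized counts per kilobase of exon (log axis) against their log2 fold change (FLOX over WT, DESeq2), with red points for an adjusted p under 0.05. The pair at the far right that passed are Hsp90ab1 (15599.6 per kilobase) and Hsp90aa1 (11878), while Hspa8, Bag1 and Stip1, next in level, lie near 0.

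By level per kilobase of exon in WT, the 5 most abundant members were Hsp90ab1 (15599.6 ± 704, SD, n = 3), Hsp90aa1 (11878 ± 197), Hspa8 (10363 ± 840.3), Bag1 (7258 ± 728) and Stip1 (5371 ± 722). The ranges of neighbours in this order did not overlap between WT libraries: Hsp90aa1 ran from 11749.6 to 12105, Hspa8 from 9729.8 to 11316, Bag1 from 6766 to 8095 and Stip1 from 4919.8 to 6204 per kilobase. Of these 5, only the HSP90 pair passed the test between the groups. The 86 members together took 1.49% to 1.55% of assigned counts in WT and 1.62% and 1.79% in FLOX.

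Within HSP70, 1 of 10 members with an adjusted p was higher and 1 lower (10% each, beside 4.33% and 4.25% of all genes). The family median log2 fold change was -0.00075. Hspa8, the constitutive HSP70 (HSC70) and the main one in these libraries, had 41848, 43191 and 48670 normalized counts in WT and 46516 and 51693 in FLOX. Its groups overlapped, with WT replicate 4 above FLOX replicate 2 (log2 fold change 0.14, 95% interval -0.07 to 0.35, DESeq2 adjusted p = 0.512). Per kilobase, Hspa8 amounted to 0.355, 0.374 and 0.401 of the cytosolic HSP90 pair in WT and to 0.321 and 0.267 in FLOX.

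The inducible HSP70 genes were low in all libraries. Hspa1a had 272, 199.7 and 246 normalized counts in WT and 198 and 231 in FLOX (-0.16, 95% interval -0.57 to 0.25, DESeq2 adjusted p = 0.755). Hspa1b had 224, 165 and 187 in WT and 185 and 235 in FLOX (0.13, 95% interval -0.31 to 0.56, DESeq2 adjusted p = 0.827). The groups of both overlapped, and because the pair are near-identical copies, reads that fit both were not counted and the split between them is uncertain. Hspa2, an HSP70 best known from the testis, had 709, 754 and 719.6 in WT and 906 and 1083 in FLOX (ENSMUSG00000059970.8; 0.45, SE 0.13, DESeq2 adjusted p = 0.0165). Hspa12a, a distant HSP70 relative with high expression in brain, had 3479, 3490.3 and 3895 in WT and 2729 and 2483 in FLOX (ENSMUSG00000025092.8; -0.47, SE 0.11, DESeq2 adjusted p = 9.3e-04). The FLOX libraries lay above all WT libraries for Hspa2 and below all of them for Hspa12a. Exons of Hspa12a share 166 bases with Eno4 on the opposite strand, which had 43.2 to 49.9 normalized counts in WT and 42.3 and 45.7 in FLOX. Without FLOX replicate 4 these were 0.31 (DESeq2 adjusted p = 0.7) and -0.41 (0.161), and Hspa2 also missed the threshold without WT replicate 2 (0.191) and without WT replicate 3 (0.0879). Hspa5 (BiP), the ER HSP70, had 5518, 6195 and 6165 in WT and 6322 and 6897 in FLOX (0.15, 95% interval -0.06 to 0.35, DESeq2 adjusted p = 0.455). The groups of Hspa5 did not overlap, but the gap was small beside the spread of the libraries.

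The HSP110 genes, which recharge HSP70 with ATP and help it dissolve aggregates, had 0 of 3 members past the threshold, and 1 was lower at an unadjusted p under 0.05. Hsph1 had 5857, 6495 and 6184 normalized counts in WT and 6448 and 6573 in FLOX (0.075, 95% interval -0.11 to 0.26, DESeq2 adjusted p = 0.747). Hspa4 had 5773, 6141 and 5706 in WT and 5976 and 5523 in FLOX (-0.031, 95% interval -0.22 to 0.16, DESeq2 adjusted p = 0.919). The groups overlapped for both genes. Hspa4l, the one past an unadjusted p of 0.05, had 4305, 4579 and 4171 in WT and 3837 and 3406 in FLOX (-0.26, SE 0.11, DESeq2 adjusted p = 0.102), with both FLOX libraries below WT.

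J-domain proteins choose the clients of HSP70 and were the most numerous members, 43 genes of which 39 had an adjusted p. Of these, 1 was higher (2.56%, beside 4.33% of all genes) and 2 were lower (5.13%, beside 4.25%), with a median log2 fold change of -0.0028. Both FLOX libraries lay below all WT libraries in 13 of the 39 and above them in 6, beside 22.9% and 19.9% of all genes. Dnajc2, a J-protein that sits on the ribosome and receives new chains, had 1592, 1543 and 1443 normalized counts in WT and 1944 and 2375 in FLOX (ENSMUSG00000029014.15; 0.50, SE 0.13, DESeq2 adjusted p = 0.00291). Both FLOX libraries lay above all WT libraries. Hspa14, the HSP70 that works with Dnajc2 on the ribosome and is named here after its values were seen, had 603, 572 and 589.9 in WT and 586 and 662 in FLOX (0.085, DESeq2 adjusted p = 0.81), with overlapping groups.

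Dnajb1, the stress-inducible partner of cytosolic HSP70, was lower, with 1844, 1667 and 1918 normalized counts in WT and 1487 and 1232 in FLOX (ENSMUSG00000005483.11; -0.41, SE 0.13, DESeq2 adjusted p = 0.0237). Dnaja4, a cytosolic J-protein of the same class as Dnaja1 and Dnaja2, had 420.4, 463 and 583 in WT and 327 and 288 in FLOX (ENSMUSG00000032285.16; -0.67, SE 0.18, DESeq2 adjusted p = 0.00783). Both FLOX libraries lay below all WT libraries in both genes, and for Dnaja4 WT replicate 4 stood above the other WT libraries. Exons of Dnaja4 share 1581 bases with Wdr61 on the opposite strand. The libraries did not mark strand, and reads that fit more than 1 gene were left out of the counts. Wdr61 had 744, 848 and 911 in WT and 767 and 821 in FLOX (-0.072, DESeq2 adjusted p = 0.847). Without FLOX replicate 4 the values were 0.35 for Dnajc2, -0.29 for Dnajb1 and -0.59 for Dnaja4 (DESeq2 adjusted p = 0.428, 0.666 and 0.37). Dnajb1 also missed the threshold without WT replicate 2 (0.206), without WT replicate 3 (0.0504) and without WT replicate 4 (0.0625), and Dnaja4 had no adjusted p without WT replicate 4 (log2 fold change -0.53).

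Dnajc5, Dnajc13, Dnajb6 and Dnajb2, J-proteins studied in neurons, did not pass. Dnajc6 (auxilin) was left out of the members by name and was not analysed here. Dnajc5 (CSPα), which guards SNARE proteins on synaptic vesicles, had 11858, 11992 and 12056 normalized counts in WT and 11357 and 10761 in FLOX (-0.11, SE 0.089, DESeq2 adjusted p = 0.523). Dnajc13, an endosomal J-protein linked to familial parkinsonism, had 414, 437 and 379 in WT and 384 and 317 in FLOX (-0.22, SE 0.17, DESeq2 adjusted p = 0.497). The FLOX libraries lay a little below WT for Dnajc5 and overlapped WT for Dnajc13. Dnajb6, which holds back aggregation of polyglutamine and α-synuclein, had 3672, 3719.6 and 4191 in WT and 3589.9 and 3904 in FLOX (-0.043, SE 0.11, DESeq2 adjusted p = 0.891). Dnajb2, a neuronal J-protein, had 5493, 5485 and 6023 in WT and 5873 and 6421 in FLOX (0.12, SE 0.10, DESeq2 adjusted p = 0.585). The groups of both genes overlapped. Dnajc12, a partner of tyrosine hydroxylase named here after its values were seen, had 1287, 1356 and 1490.2 in WT and 1545 and 1789 in FLOX (0.27, SE 0.13, DESeq2 adjusted p = 0.17), with both FLOX libraries above WT.

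Dnajc7, which binds both HSP70 and HSP90, lay just outside the threshold, with 5254, 5203 and 6106 normalized counts in WT and 6283 and 8023 in FLOX (0.37, SE 0.13, DESeq2 adjusted p = 0.0509). It passed in 5 of the 14 alternatives, among them without FLOX replicate 2 (0.54, DESeq2 adjusted p = 0.0032), and was 0.18 (0.873) without FLOX replicate 4. The main cytosolic J-proteins Dnaja1 (0.10, SE 0.11, DESeq2 adjusted p = 0.705) and Dnaja2 (-0.075, SE 0.10, 0.77) and the ER J-proteins Dnajb9 (0.14, SE 0.11, 0.554) and Dnajc3 (0.11, SE 0.13, 0.728) did not pass. The groups overlapped for Dnaja1, Dnaja2 and Dnajc3, and for Dnajb9 both FLOX libraries lay above WT. Of the 4 members listed as mitochondrial, 3 had both FLOX libraries below all WT libraries (as had 22.9% of all genes) and 0 passed. At an unadjusted p under 0.05, 1 was higher and 2 lower, beside 1505 and 1654 of all 15228 genes.

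Among the small heat shock proteins, 1 of 5 with an adjusted p was higher (20%, beside 4.33% of all genes). Hspb1 (HSP27), which holds unfolded proteins and binds the actin skeleton, had 113, 127 and 126 normalized counts in WT and 157 and 304 in FLOX (ENSMUSG00000004951.11; 0.92, SE 0.28, DESeq2 adjusted p = 0.0224). FLOX replicate 4 stood far above every other library, and FLOX replicate 2 lay above WT, the order in which the microglial and endothelial marker sums stood too. Every other member higher in FLOX stood in that order, so it is not particular to Hspb1. Against FLOX replicate 2 alone the log2 fold change was 0.36 with no adjusted p, and against FLOX replicate 4 alone it was 1.32 (DESeq2 adjusted p = 5.6e-04). The call was also lost without WT replicate 2 (0.157), without WT replicate 3 (0.0838), without WT replicate 4 (no adjusted p) and when a trend on transcript length was removed (0.0963). Hspb8, which works with Bag3 to pass clients to autophagy, had 918, 715 and 644 in WT and 901 and 967 in FLOX (0.30, SE 0.16, DESeq2 adjusted p = 0.283). Hspb6 had 411, 337 and 448 in WT and 382 and 408 in FLOX (-0.014, SE 0.17, DESeq2 adjusted p = 0.981). The groups of Hspb8 and Hspb6 overlapped. Cryab, a small heat shock protein gene outside the naming rule, had 4047, 3978 and 5656 in WT and 4707 and 5789 in FLOX. Its groups overlapped as well (0.20, SE 0.16, DESeq2 adjusted p = 0.534), and its counts were higher than those of Hspb1, Hspb6 and Hspb8 in every library.

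**Figure D4:**
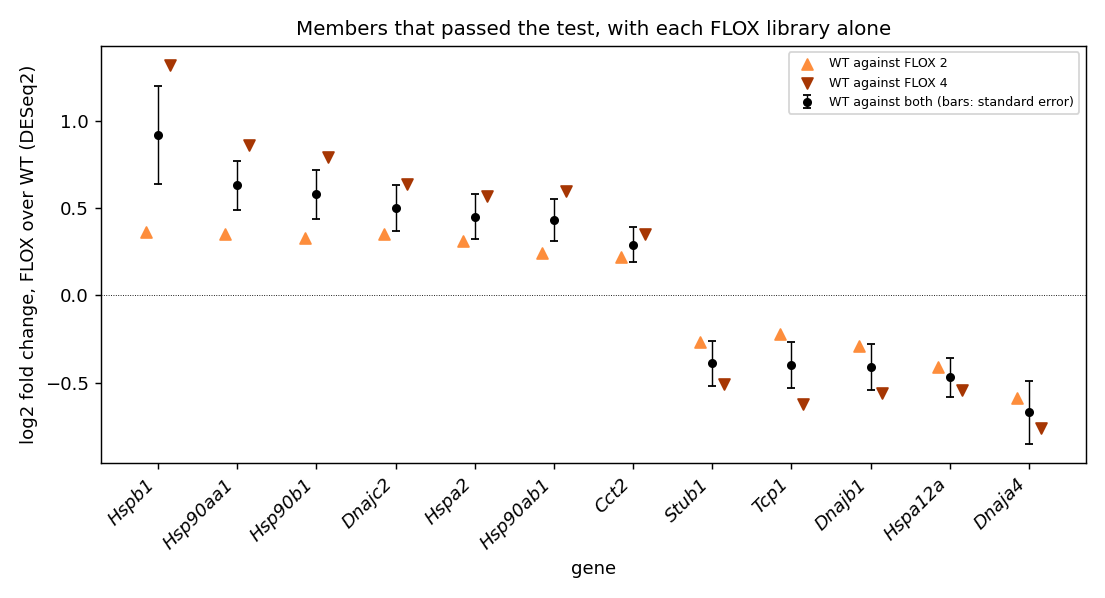
Log2 fold change of the 12 members that passed, from WT against both FLOX libraries (black, bars show the standard error) and from WT against each FLOX library alone (triangles). Every triangle lies on the same side of 0 as the black point, and FLOX replicate 4 gives the larger difference each time, from 0.36 against 1.32 for Hspb1 to 0.22 against 0.35 for Cct2.

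The CCT/TRiC subunits work as 1 complex. Of 8 with an adjusted p, Cct2 was higher and Tcp1, the alpha subunit, was lower (12.5% each, beside 4.33% and 4.25% of all genes). Tcp1 had 3046, 3087 and 3154 normalized counts in WT and 2668 and 2012 in FLOX (ENSMUSG00000068039.14; -0.40, SE 0.13, DESeq2 adjusted p = 0.032). Cct2 had 4804, 5015 and 4749 in WT and 5660.1 and 6184 in FLOX (ENSMUSG00000034024.9; 0.29, SE 0.10, DESeq2 adjusted p = 0.0428). The FLOX libraries lay below all WT libraries for Tcp1 and above all of them for Cct2. The other 6 subunits did not pass and ran from -0.038 for Cct5 to 0.26 for Cct8 (5462 to 6178 in WT, 6536 and 7387 in FLOX, DESeq2 adjusted p = 0.108). Cct3, which varied least between WT libraries among the 72 members with a WT mean of at least 100 (coefficient of variation 0.237%), had 4184, 4199.5 and 4181 in WT and 4251 and 4486 in FLOX (0.061, SE 0.094). Cct4 (-0.031), Cct7 (0.053) and Cct6a (0.19) had DESeq2 adjusted p of 0.915, 0.823 and 0.316.

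Set against its partners in the same library, Tcp1 per kilobase of exon was 0.551, 0.538 and 0.521 of the median of Cct2 to Cct8 in WT and 0.434 and 0.287 in FLOX. The ratio was thus lower in both FLOX libraries than in any WT library, and most in FLOX replicate 4. Exons of Tcp1 share 571 bases with Acat3 and 141 with Mrpl18 on the opposite strand. Acat3 had 20.4 to 42.3 normalized counts in WT and 40.3 and 81.5 in FLOX, and Mrpl18 had 1301 to 1482 in WT and 1361 and 1392 in FLOX. The part of the overlaps in the Tcp1 difference was not tested. Without FLOX replicate 4, Tcp1 was -0.22 and Cct2 0.22 (DESeq2 adjusted p = 0.748 and 0.731). Tcp1 also missed the threshold without WT replicate 2 (0.169), without WT replicate 3 (0.136) and with a length trend removed (0.0688), while the Cct2 call held in only 2 of 14 alternatives. Cct2 missed the threshold when any 1 library was left out (0.0538 to 0.731), with TMM (0.0525) or total-count scaling (0.102), without independent filtering (0.082), with a length trend removed (0.0764) and in unfiltered edgeR (0.0905).

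**Figure D5:**
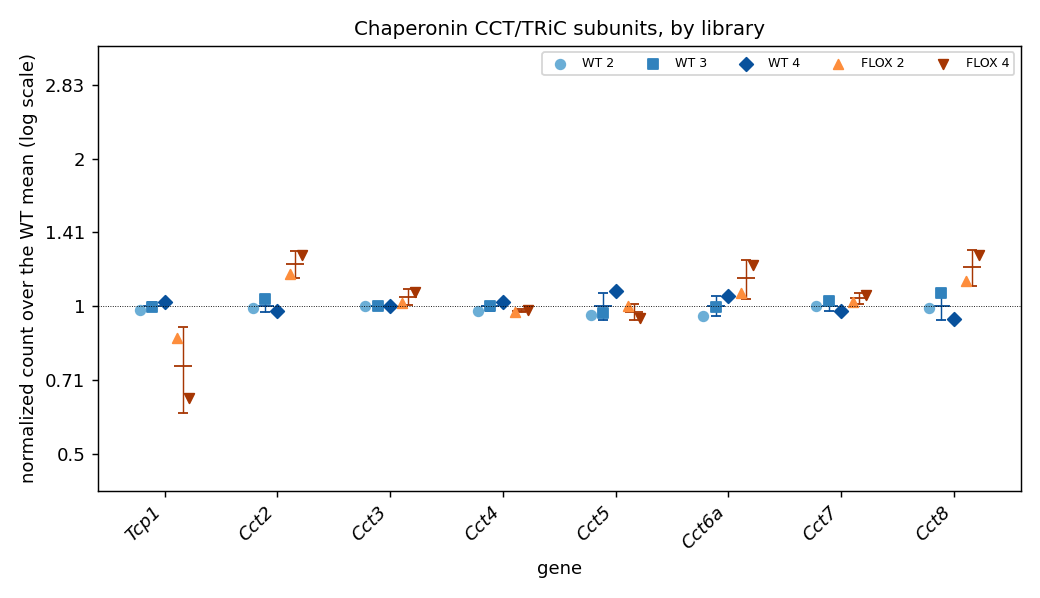
Normalized counts of the 8 CCT/TRiC subunits divided by the WT mean of each gene, in the 5 libraries on a log axis, with the mean and SD of each group. Tcp1 lies below 1 in both FLOX libraries (fold 0.756 for the group), Cct2 and Cct8 lie above 1 (1.22 and 1.2), and the others stay nearer to 1.

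None of the 6 BAG genes passed, nor was any past an unadjusted p of 0.05. Bag1, an exchange factor of HSP70 and the BAG gene with the highest level per kilobase, had 9327, 9128 and 10920 normalized counts in WT and 9730.3 and 8613 in FLOX (-0.094, SE 0.12, DESeq2 adjusted p = 0.734). Bag3, the stress-inducible BAG gene, had 715, 546 and 565 in WT and 770.4 and 682 in FLOX (0.25, 95% interval -0.06 to 0.57, DESeq2 adjusted p = 0.381). The groups overlapped for both. Bag5 was -0.048 (SE 0.11) and Bag6, which guards membrane proteins before insertion, was -0.15 (SE 0.11), with DESeq2 adjusted p of 0.883 and 0.452.

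Stub1 (CHIP), the ubiquitin ligase that takes clients from HSP70 and HSP90 to the proteasome, was lower, with 3094, 2958 and 3534 normalized counts in WT and 2655 and 2237 in FLOX (ENSMUSG00000039615.10; -0.39, SE 0.13, DESeq2 adjusted p = 0.0324). The groups did not overlap. Its exons share 1084 bases with Jmjd8 on the opposite strand. Jmjd8, named here after its values were seen, was lower as well, with 181, 161 and 212 in WT and 103 and 65.6 in FLOX (-1.13, SE 0.27, DESeq2 adjusted p = 0.00148). Without strand, reads of the pair could not be told apart where they overlap. Reads that fit more than 1 gene were left out of the counts, so the levels of both genes may be underestimated. The size of the Stub1 difference is uncertain for that reason. Stub1 missed the threshold without any 1 of the WT libraries (DESeq2 adjusted p = 0.0606 to 0.159), without FLOX replicate 4 (-0.27, 0.692) and with a trend on GC content removed (0.0653).

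Stip1 (HOP), the bridge from HSP70 to HSP90, had 10519, 10371 and 13079 normalized counts in WT and 10445 and 11872 in FLOX (-0.021, 95% interval -0.27 to 0.23, DESeq2 adjusted p = 0.958), with overlapping groups. Hsf1, the master regulator of the heat shock response, had 685, 834 and 867 in WT and 681 and 595 in FLOX (-0.32, 95% interval -0.61 to -0.02, DESeq2 adjusted p = 0.2). Hsf2 had 504, 519 and 551 in WT and 569 and 648 in FLOX (0.21, SE 0.14, DESeq2 adjusted p = 0.423). FLOX libraries lay below WT for Hsf1, by a narrow gap in FLOX replicate 2, and above WT for Hsf2, but neither passed.

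Across families, the list of stress-inducible members held 12 genes, among them Hspa8, which is mainly constitutive. Of these, Hsp90aa1 and Hspb1 were higher (16.7%, beside 4.33% of all genes) and Dnajb1 was lower (8.33%, beside 4.25%). Hspa1a, Hspa1b, Hspa8, Hspa4l, Hsph1, Dnaja1, Hspb8, Bag3 and Stip1 did not pass. The median of the list was 0.11, and 0.10 over the 11 without Hspa8. The 8 members listed for the ER had a median of 0.12. Of them, 1 passed as higher, Hsp90b1 (12.5%, beside 4.33% of all genes), and 2 were higher at an unadjusted p under 0.05 (beside 1505 of all 15228 genes). Both FLOX libraries lay above all WT libraries in 4 of the 8 and below in 0, beside 19.9% and 22.9% of all genes. The ER list is not complete, so these counts hold for the listed genes alone.

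The partners of these chaperones outside the naming rule were read from 5 lists. Of 14 HSP90 co-chaperones with an adjusted p, 2 were lower (14.3%, beside 4.25% of all genes) and 0 higher (median 0.013). Cdc37, which brings kinases to HSP90, had 5845, 5377 and 6595 normalized counts in WT and 4842 and 4550.1 in FLOX (-0.34, SE 0.12, DESeq2 adjusted p = 0.0422). Its relative Cdc37l1 had 3384, 3629.9 and 4269 in WT and 2924 and 2761 in FLOX (-0.40, SE 0.12, DESeq2 adjusted p = 0.0203). Both FLOX libraries lay below all WT libraries in both genes. The calls held in 7 and 8 of 14 alternatives, and with a length trend removed the adjusted p were 0.152 for Cdc37 and 0.0805 for Cdc37l1. In edgeR on filtered genes no gene of the list passed, with 1 higher and 3 lower at an unadjusted p under 0.05. Of 11 HSP70 co-factors, 1 was lower (9.09%, beside 4.25% of all genes) and 0 higher. It was Sgtb, a neuronal binder of HSP70, with 1586, 1666 and 1906 in WT and 1243 and 1103 in FLOX (-0.55, SE 0.13, DESeq2 adjusted p = 0.00113).

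Prefoldin hands unfolded actin and tubulin to CCT, and tubulin cofactors take tubulin from it. Of 14 genes of this list, 4 were higher and 0 lower (28.6%, beside 4.33% of all genes), with a median of 0.18. Tbca, a tubulin cofactor, had 4191, 4633 and 4570.4 normalized counts in WT and 6133 and 7067 in FLOX (0.56, SE 0.11, DESeq2 adjusted p = 5.0e-05). The prefoldin subunit Pfdn5 had 4721, 5175 and 4787 in WT and 6653 and 7078 in FLOX (0.49, SE 0.10, DESeq2 adjusted p = 1.2e-04). Both FLOX libraries stood above all WT libraries in these genes. With a length trend removed, the log2 fold change of each was 0.35 (DESeq2 adjusted p = 0.014 for Tbca and 0.0103 for Pfdn5). Pfdn2 (0.43, DESeq2 adjusted p = 0.00308) and Pfdn4 (0.41, 0.013) were the other two. In edgeR on filtered genes, 2 of the 14 passed as higher.

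Of 10 heat shock response genes outside the rule, 1 was higher (10%, beside 4.33% of all genes), Hsbp1, which binds and restrains Hsf1, with 8309, 9088 and 9029 normalized counts in WT and 10359 and 11490 in FLOX (0.31, SE 0.10, DESeq2 adjusted p = 0.0316). The FLOX libraries were above every WT library, but the call held in only 6 of 14 alternatives and was lost in edgeR on filtered genes (adjusted p = 0.0832) and with a length trend removed (0.155). The list's median was 0.22, and it was 0.034 without FLOX replicate 4. Of 11 ER folding genes, 0 passed in either direction in DESeq2, and 0 in edgeR on filtered genes (median 0.21). At an unadjusted p under 0.05, 5 were higher and 0 lower in each. Of all 15228 genes, 1505 were higher and 1654 lower at that p in DESeq2, and 1778 and 1861 in edgeR.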

How the data were processed

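BAC-TRAP RNA of 3 WT and 2 FLOX pools of midbrain was sequenced by the authors as poly(A)-selected libraries without strand, trimmed, aligned with STAR and counted per gene with HTSeq. The deposited values are these raw counts, without normalization. The methods name the build GRCm38, while the submitters' processing notes name GRCm39 with Trim Galore 0.6.6, STAR 2.7.9a and HTSeq 0.11.3, and the table does not settle which was used. Gene IDs were therefore matched without version to GENCODE M21 names (52093 of 53700), which also gave exon lengths and overlaps. Promoter windows came from RefSeq. Of all counts, 12.6% to 14.3% were on summary lines (no gene, more than 1 gene, more than 1 place) and were left out of library sizes and tests.

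All rows were fitted with DESeq2 1.42.0 in R 4.3.3, the tool of the study's methods, with group as the only term, default size factors, a two-sided Wald test, independent filtering at 0.05 and Benjamini-Hochberg adjustment over all genes. Normalized counts are counts over size factor, and levels between genes were compared per kilobase of merged exon. Every pair of libraries differed by more than counting noise. Alternatives were edgeR 4.0.16 without a filter and with filterByExpr, TMM or total-count scaling, a filter on low counts (10 in at least 2 libraries), no independent filtering, removal of a length or GC trend, the replicate number as a block, and leaving out each library. The edgeR fit with filterByExpr was added after seeing the data.

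The members and all lists were chosen with earlier results of these data known, so no list was tested as a set. Values were given for members past an adjusted p of 0.05, a fixed selection of well-known members, the 5 most abundant per kilobase, Esrrg, and the genes of each partner list past the threshold. Hspa14, Hspa4l, Dnajc12 and the overlapping genes Wdr61, Eno4, Acat3, Mrpl18 and Jmjd8 were added after their values were seen. So were the values of Cryab and of single glutamatergic and endothelial markers.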

Additional observations from a re-analysis of the deposited data

How the results depend on the processing

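All 12 members that passed kept their direction under all 14 alternatives, and their calls held for at least 9 of the 12 under TMM or total-count scaling, the low-count filter, unfiltered edgeR, no independent filtering (3 lower in place of 5) and removal of a length or GC trend. Cct2 was among those lost in most of these. Under edgeR with filterByExpr the counts were 0 higher and 0 lower. Leaving out 1 library gave 0 to 7 higher and 0 to 6 lower members, a median log2 fold change of the members of -0.014 to 0.066 (0.066 without WT replicate 4) and an Esrrg log2 fold change of -0.55 to -0.19. With 1 FLOX library left, its spread was assumed to be that of WT. With a replicate block, 2 members were higher (Hsp90ab1 and Hsp90b1) and 1 lower (Hspa12a), with 8 and 6 at an unadjusted p under 0.05. Deviations of same-numbered libraries correlated at 0.09 for both shared numbers, and the other pairs ran from -0.09 to 0.02. With 2 FLOX libraries, deviations from their mean mirror each other, so the 0.09 values are not separate. The glutamatergic marker Slc17a7 had 2974, 2772 and 390.1 normalized counts in WT replicates 2, 3 and 4. In FLOX replicates 2 and 4 it had 2303 and 800.3. Slc17a8 had 409.8, 239 and 210.4 in WT and 354 and 105 in FLOX. Both were lower in replicate 4 than in replicate 2 of each group, while Slc17a6 was not (3981, 4165 and 4301 in WT, 3526 and 3991 in FLOX). Whether same-numbered libraries share more than a number was not tested and cannot be told from these values. Replicate 3 exists in WT alone. Members near 0 that did not pass changed sign in places: with a length trend removed Cct4 was 0.01, Dnajb6 0.018 and Hspa4 0.027, with a GC trend removed Hspb6 was 0.0061, with the replicate block Hspa4 was 0.0014, and with 1 library left out Cct5 ran from -0.078 to 0.014, Dnajb6 from -0.11 to 0.017, Dnajc3 from -0.032 to 0.24, Hspa1b from -0.055 to 0.29, Hspa4 from -0.089 to 0.021, Hspb6 from -0.12 to 0.075 and Stip1 from -0.12 to 0.092. The cause of the differences between alternatives was not tested. Depth limits the 8 members without an adjusted p, which had at most 9 counts in a library.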
